A study of Mus musculus with 8 samples.

Results

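The genes described here were 10 circadian clock and clock output genes, Dbp, Tef, Per1, Per2, Per3, Nr1d1, Nr1d2, Bhlhe41, Arntl and Npas2, among the 55679 genes of the deposited table. They were selected on values of the same ANG II against control comparison in these libraries, so their differences between the groups are a description, and no p-value is given for them. The 8 libraries came from left ventricles of male C57BL/6J mice of WT genotype, 4 of mice given saline for 7 days (control) and 4 of mice given angiotensin II (ANG II), a hormone that constricts vessels and raises blood pressure, for 7 days at 1500 ng/kg/min, all through pumps under the skin. Whether a library holds 1 mouse or a pool was not given, and the study's methods state more biological replicates per group than the libraries analysed here. The extraction note in the labels names CRC cells, against the left ventricle given as tissue. Both groups went through the same pump surgery, anaesthesia and saline flush of the heart, and the whole ventricle with its mixed cells was used. The age of the mice, the hour at which hearts were taken and the lighting schedule were not given in the sources used here. An effect of the infusion and a difference in the hour of collection therefore cannot be told apart in any value of these genes.

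The circadian clock is a loop of transcription factors that keeps time in nearly every cell, the cardiomyocyte included. ARNTL (also called BMAL1) pairs with CLOCK or NPAS2, binds E-box elements and switches on the Per, Cry, Nr1d, Bhlhe and Dbp genes. The PER and CRY proteins and the BHLHE repressors then shut that activity off, the nuclear receptors NR1D1 and NR1D2 repress Arntl and Npas2 through ROR elements, and DBP, TEF and HLF carry the rhythm to output genes through D-box elements. The transcripts of the loop rise and fall at set hours of the day, and those of Arntl and Npas2 peak at about the opposite time of day to those of Dbp and Nr1d1.

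Promoter sequence is shown for the genes whose starts carry the letters of these elements, since the loop is wired through them. The windows ran from 250 bases before to 50 bases after each start in RefSeq (GRCm38.p6), and 9 of the 10 genes were matched, in 12 windows. Both strands were searched for the E-box CACGTG, the E-box variant CACGTT, the ROR element core AGGTCA, the D-box TTANNTAA and the cAMP element core TGACG. The E-box CACGTG was found in windows of 3 genes, Per1, Bhlhe41 and Tef, and is held by 7.15% of all 32851 windows. In these stretches the capitals mark CACGTG, which lay 166 bases upstream of the start in Per1, 153 in Bhlhe41, and 127 and 138 at the first and the second start of Tef.
Per1, chr11:69098763-69098808, + strand: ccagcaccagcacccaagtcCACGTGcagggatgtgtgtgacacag
Bhlhe41, chr6:145865548-145865593, - strand: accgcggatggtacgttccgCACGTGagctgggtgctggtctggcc
Tef, first start, chr15:81802526-81802571, + strand: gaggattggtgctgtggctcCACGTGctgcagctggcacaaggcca
Tef, second start, chr15:81811256-81811301, + strand: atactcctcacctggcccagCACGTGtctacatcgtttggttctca
The variant CACGTT, held by 4.68% of all windows, was found in Nr1d1, 28 bases upstream on the opposite strand, so that it reads AACGTG (capitals) in the window, which is shown whole.
Nr1d1, chr11:98775328-98775627, - strand: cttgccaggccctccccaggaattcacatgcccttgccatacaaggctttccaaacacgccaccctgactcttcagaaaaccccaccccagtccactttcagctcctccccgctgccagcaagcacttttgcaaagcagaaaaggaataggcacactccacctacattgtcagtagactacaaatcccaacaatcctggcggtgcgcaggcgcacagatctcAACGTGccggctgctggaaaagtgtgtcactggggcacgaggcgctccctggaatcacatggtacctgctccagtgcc

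The D-box letters TTANNTAA, held by 6.003% of all windows, were found in Per3 and Tef. Per3 held the same 8 letters at 205 and 158 bases upstream (capitals). Tef held a copy 174 bases upstream of its first start.
Per3, chr4:151044616-151044915, - strand: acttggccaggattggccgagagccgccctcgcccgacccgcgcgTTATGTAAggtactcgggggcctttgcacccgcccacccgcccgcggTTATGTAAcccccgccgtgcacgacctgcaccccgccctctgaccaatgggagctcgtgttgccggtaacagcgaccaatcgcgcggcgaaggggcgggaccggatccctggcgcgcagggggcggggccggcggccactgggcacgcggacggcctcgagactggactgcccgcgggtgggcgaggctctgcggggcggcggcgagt
Tef, first start, chr15:81802479-81802526, + strand: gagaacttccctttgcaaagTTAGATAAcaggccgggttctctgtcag
The ROR element core AGGTCA was found in windows of 3 genes, Arntl, Nr1d2 and Per1, and in 16.3% of all windows. It lay 31 bases downstream of the second start of Arntl, 77 bases upstream in Nr1d2 and 137 bases upstream on the opposite strand in Per1.
Arntl, second start, chr7:113207261-113207560, + strand: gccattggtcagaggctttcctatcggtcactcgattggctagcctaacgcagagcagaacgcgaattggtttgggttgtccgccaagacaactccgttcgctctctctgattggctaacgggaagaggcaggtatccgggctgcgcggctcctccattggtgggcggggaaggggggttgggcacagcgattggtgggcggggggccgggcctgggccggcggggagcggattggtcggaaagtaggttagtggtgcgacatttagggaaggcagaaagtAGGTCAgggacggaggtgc
Nr1d2, chr14:18239158-18239203, - strand: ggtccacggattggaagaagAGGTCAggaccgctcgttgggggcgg
The cAMP element core TGACG was found in both windows of Per1 and in no window of the other matched genes, against 20.8% of all windows. A match of letters is a description of the sequence and not a binding site, and the Dbp and Npas2 windows held none of the 5 motifs.

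Expression was measured as FPKM, in which a fragment count is divided by transcript length and library size, so levels can be set side by side between genes. Steps in the low values gave 14455715 to 16565012 fragments per control library and 15118860 to 15975759 per ANG II library. Mitochondrially encoded genes took 28.9 to 30.2% of the FPKM total in control and 22.1 to 24.6% in ANG II, and the median log2 fold change of all 19364 tested genes was 0.15. For this reason the log2 fold change of each selected gene, as deposited, is followed below by its value over that median. Log2 fold changes of other genes, and those under other settings, are printed without this subtraction and include the shift of all genes. Log2 fold changes were taken on log2(FPKM + 1). The summed FPKM of 8 ventricular cardiomyocyte markers was 47364 to 48303 in control and 35506 to 38203 in ANG II, with 2 of 8 called lower. The sum of 7 fibroblast markers was 501 to 751 against 2770.4 to 3245, with 7 of 7 called higher, and that of 8 macrophage markers 232 to 294 against 503 to 705, with 8 of 8 called higher. Atrial markers summed to 1.15 to 48.8 in control and 52.5 to 230.5 in ANG II, with 1 of 3 called higher, and Sln was at 0 in control 3. Endothelial markers summed to 486 to 560.5 against 586 to 717 and smooth muscle markers to 95.6 to 164 against 102 to 129, with 1 of 6 and 1 of 4 called higher, and Tagln was at 0 in control 1 and 2 and at most at 0.389 FPKM elsewhere. In whole ventricle, fewer cells of a type and less RNA per cell cannot be told apart, and the part of cell makeup in the differences below was not tested.

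Of the 10 genes, all of which passed the filter on low values, 7 were higher and 2 lower in ANG II past the thresholds used across the table (limma, adjusted p under 0.05 and absolute log2 fold change above 0.5), and Per1 was past neither. Across all tested genes, 15.4% were called, 14.0% higher and 1.41% lower. The groups of 4 libraries did not overlap for 7 genes, all higher in ANG II, where 28.7% of all tested genes were higher without overlap and 5.06% lower. These shares are printed for scale, since the comparison chose the genes, and the calls are no independent evidence about them. Nr1d2 and Tef fell under the fold threshold with median-of-ratios scaling (log2 fold changes of 0.45 and 0.47), and Arntl was not called without ANG II 1, without ANG II 2 or without control 4. The median log2 fold change of the 10 genes was 0.75.

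**Figure D1:**
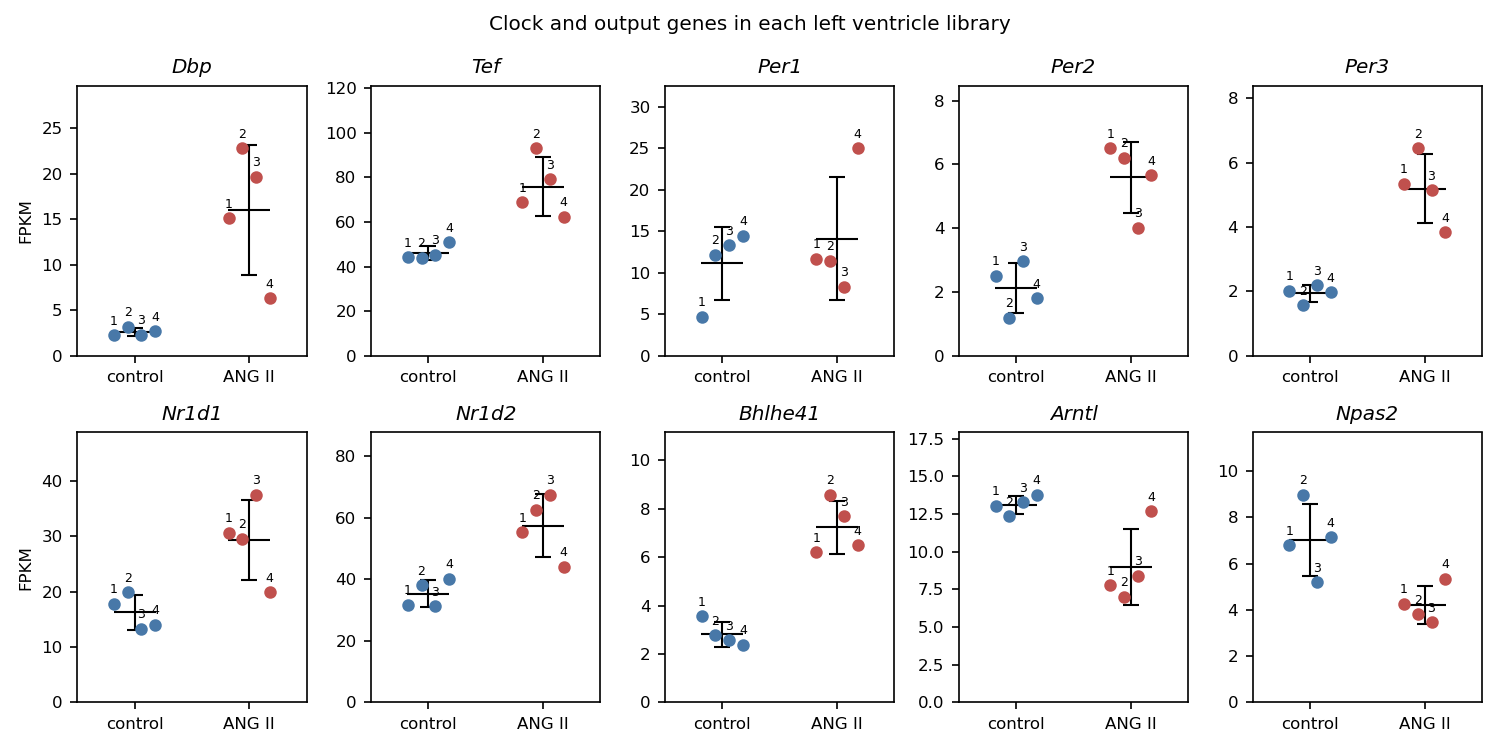
FPKM (y axis, from 0, a scale per gene) of the 10 genes in the 4 control (blue) and 4 ANG II (red) libraries; points are libraries with their replicate number, and bars give the mean and SD. Dbp, Tef, Per2, Per3, Nr1d1, Nr1d2 and Bhlhe41 sat higher in every ANG II library (Nr1d1 in ANG II 4 level with control 2), while ANG II 4 sat at the top of its group for Per1, Arntl and Npas2.

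Among the output factors, Dbp (ENSMUSG00000059824, chr7:45705088-45710203), a PAR bZIP activator that binds D-boxes and whose transcript has one of the widest daily swings of the loop, showed the widest gap of the 10 genes. Its level was 2.29, 3.23, 2.31 and 2.70 FPKM in control 1 to 4 and 15.2, 22.8, 19.7 and 6.36 FPKM in ANG II 1 to 4. Every ANG II library lay above every control library, with ANG II 4 far below the other ANG II libraries. The mean was 2.63 ± 0.438 FPKM in control against 16.0 ± 7.15 in ANG II (SD, n = 4 each), a 6.08-fold difference, the difference of log2(FPKM + 1) being 2.11 (SE 0.312), 1.96 over the median of all genes. Without ANG II 4 the mean of the other ANG II libraries was 19.2 FPKM, 7.30 times the control mean. The values rested on 45 to 494 fragments per library. Of the Dbp exon bases, 18.0% lie under Sphk2 on the other strand, and Sphk2 itself stood at 6.28 ± 0.527 FPKM in control against 6.60 ± 0.340 in ANG II (SD, n = 4 each).

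Tef (ENSMUSG00000022389, chr15:81802421-81826863), a PAR bZIP factor of the same family with a flatter rhythm, was the most abundant of the 10 genes. Its level was 44.1, 44.0, 45.4 and 50.8 FPKM in control 1 to 4 and 68.9, 93.0, 79.1 and 62.3 FPKM in ANG II 1 to 4. The groups did not overlap, and ANG II 4 was again the ANG II library nearest to control. The mean was 46.1 ± 3.21 FPKM against 75.8 ± 13.4 (SD, n = 4 each), 1.65-fold higher in ANG II, the difference of log2(FPKM + 1) being 0.69 (SE 0.111), 0.55 over the median.

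The period genes encode the repressors that pair with CRY proteins, and they did not move as a block. Per3 (ENSMUSG00000028957, chr4:151003652-151044665) was measured at 2.03, 1.57, 2.20 and 1.98 FPKM in control 1 to 4 and at 5.35, 6.45, 5.14 and 3.84 FPKM in ANG II 1 to 4. The control libraries lay close together and below all ANG II libraries, with ANG II 4 nearest to them. The mean was 1.95 ± 0.269 FPKM in control against 5.19 ± 1.07 in ANG II (SD, n = 4 each), 2.67-fold higher, the difference of log2(FPKM + 1) being 1.06 (SE 0.140), 0.91 over the median. Per2 (ENSMUSG00000055866, chr1:91415982-91459324), the period gene whose loss most shortens or abolishes rhythms in mice, was at 2.51, 1.20, 2.97 and 1.81 FPKM in control and 6.50, 6.20, 4.01 and 5.66 FPKM in ANG II. Here too the groups did not overlap, but the ANG II library nearest to control was ANG II 3 rather than ANG II 4. The mean was 2.12 ± 0.778 FPKM against 5.59 ± 1.11 (SD, n = 4 each), a 2.64-fold difference, the difference of log2(FPKM + 1) being 1.10 (SE 0.197), 0.95 over the median.

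Per1 (ENSMUSG00000020893, chr11:69095217-69109960), which is driven by the clock and is also an early response gene to cAMP and glucocorticoid signals, was the exception. It stood at 4.70, 12.2, 13.3 and 14.4 FPKM in control 1 to 4 and at 11.7, 11.5, 8.33 and 25.0 FPKM in ANG II 1 to 4. The groups overlapped broadly, with control 1 below all other libraries and ANG II 4 above them. The mean was 11.2 ± 4.41 FPKM in control against 14.1 ± 7.41 in ANG II (SD, n = 4 each), the difference of log2(FPKM + 1) being 0.30 (SE 0.365), 0.15 over the median. The sign rested on single libraries, since the log2 fold change was 0.0023 without ANG II 4 and -0.031 without control 1.

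The nuclear receptors NR1D1 and NR1D2 (REV-ERB alpha and beta) bind haem and repress Arntl and Npas2. Nr1d1 (ENSMUSG00000020889, chr11:98767932-98775333) was at 17.8, 19.9, 13.3 and 14.1 FPKM in control 1 to 4 and at 30.6, 29.6, 37.5 and 19.9 FPKM in ANG II 1 to 4. Control 2 and ANG II 4 met at the same rounded level, so that the groups were free of overlap only in the digits beyond, and the other ANG II libraries lay clear of all controls. The mean was 16.3 ± 3.13 FPKM against 29.4 ± 7.23 (SD, n = 4 each), 1.81-fold higher in ANG II, the difference of log2(FPKM + 1) being 0.80 (SE 0.183), 0.65 over the median. Thra, a thyroid hormone receptor gene on the other strand whose end overlaps 8.55% of the Nr1d1 exon bases, was at 59.9 ± 4.42 FPKM in control against 57.2 ± 2.68 in ANG II (SD, n = 4 each; log2 fold change -0.07, limma, adjusted p = 0.450). With median-of-ratios scaling the log2 fold change of Thra was -0.29 (limma, adjusted p = 0.00521). With quantile normalization it was -0.24 (limma, adjusted p = 0.0157).

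Nr1d2 (ENSMUSG00000021775, chr14:18204054-18239127) was at 31.8, 38.0, 31.3 and 40.2 FPKM in control 1 to 4 and at 55.2, 62.6, 67.4 and 44.0 FPKM in ANG II 1 to 4. Its order of ANG II libraries put ANG II 3 first and ANG II 4 last, as for Nr1d1. The mean was 35.3 ± 4.46 FPKM against 57.3 ± 10.2 (SD, n = 4 each), a 1.62-fold difference, the difference of log2(FPKM + 1) being 0.67 (SE 0.131), 0.53 over the median. When libraries were scaled by the median of ratios, the groups overlapped for both receptors. Of the 50-base words of the Nr1d2 transcripts, 5.13% also occur in AC170187.1, so its count may be shared in part.

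Bhlhe41 (DEC2, ENSMUSG00000030256, chr6:145858243-145865558), a bHLH repressor that competes at E-boxes, was at 3.57, 2.77, 2.56 and 2.38 FPKM in control 1 to 4 and at 6.20, 8.58, 7.68 and 6.50 FPKM in ANG II 1 to 4. The groups stood well apart, and for this gene ANG II 1 was the ANG II library nearest to control. The mean was 2.82 ± 0.521 FPKM against 7.24 ± 1.10 (SD, n = 4 each), 2.57-fold higher in ANG II, the difference of log2(FPKM + 1) being 1.11 (SE 0.129), 0.96 over the median. Of its exon bases, 19.0% lie under Gm43909 on the other strand, which was at 0 in all control libraries and at most at 0.1003 FPKM in ANG II.

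Of the selected genes, the activators Arntl and Npas2 had lower means in ANG II, with groups that overlapped as deposited. Arntl (ENSMUSG00000055116, chr7:113207465-113314126), the partner without which the loop stops, was at 13.0, 12.3, 13.3 and 13.8 FPKM in control 1 to 4 and at 7.79, 7.03, 8.42 and 12.7 FPKM in ANG II 1 to 4. The control libraries were nearly level, ANG II 1 to 3 lay well below them, and ANG II 4 lay among them. The mean was 13.1 ± 0.595 FPKM in control against 8.98 ± 2.54 in ANG II (SD, n = 4 each), 1.46-fold higher in control, the difference of log2(FPKM + 1) being -0.53 (SE 0.146), -0.68 relative to the median. Without ANG II 4 the ANG II mean was 7.75 FPKM and the control mean 1.69 times as high.

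Npas2 (ENSMUSG00000026077, chr1:39193731-39363236), the CLOCK paralogue that can take its place beside ARNTL, was at 6.79, 8.98, 5.20 and 7.14 FPKM in control 1 to 4 and at 4.27, 3.80, 3.48 and 5.35 FPKM in ANG II 1 to 4. Only ANG II 4 and control 3 crossed. The mean was 7.03 ± 1.55 FPKM against 4.23 ± 0.818 (SD, n = 4 each), 1.66-fold higher in control, the difference of log2(FPKM + 1) being -0.61 (SE 0.157), -0.76 relative to the median. After median-of-ratios scaling neither activator overlapped between the groups.

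The order of levels was the same in both groups for the first 3 genes and differed below them. In control the means ran Tef, Nr1d2, Nr1d1, Arntl, Per1, Npas2, Bhlhe41, Dbp, Per2 and Per3. Neighbours overlapped between libraries from Nr1d1 down to Npas2 and again from Bhlhe41 down to Per3, so only the steps from Tef to Nr1d2, from Nr1d2 to Nr1d1 and from Npas2 to Bhlhe41 were clear of the spread. In ANG II the means ran Tef, Nr1d2, Nr1d1, Dbp, Per1, Arntl, Bhlhe41, Per2, Per3 and Npas2, and only the step from Nr1d2 to Nr1d1 was free of overlap. Dbp lay below Arntl in all 4 control libraries and above it in ANG II 1 to 3.

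A ratio within a library does not depend on any scaling by 1 factor per library, though quantile normalization can change it. The Dbp level divided by the Arntl level was 0.176, 0.261, 0.174 and 0.196 in control 1 to 4 and 1.94, 3.25, 2.34 and 0.501 in ANG II 1 to 4. All ANG II ratios lay above all control ratios, and that of ANG II 4 lay between the control libraries and the other ANG II libraries. The mean ratio was 0.202 ± 0.0410 in control against 2.01 ± 1.14 in ANG II (SD, n = 4 each). Per3 over Npas2 was 0.294 ± 0.102 in control and 1.29 ± 0.420 in ANG II without overlap. Nr1d1 over Arntl was 1.25 ± 0.294 and 3.54 ± 1.33 (SD, n = 4 each), and here ANG II 4, at 1.57, lay under control 2, at 1.62.

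**Figure D2:**
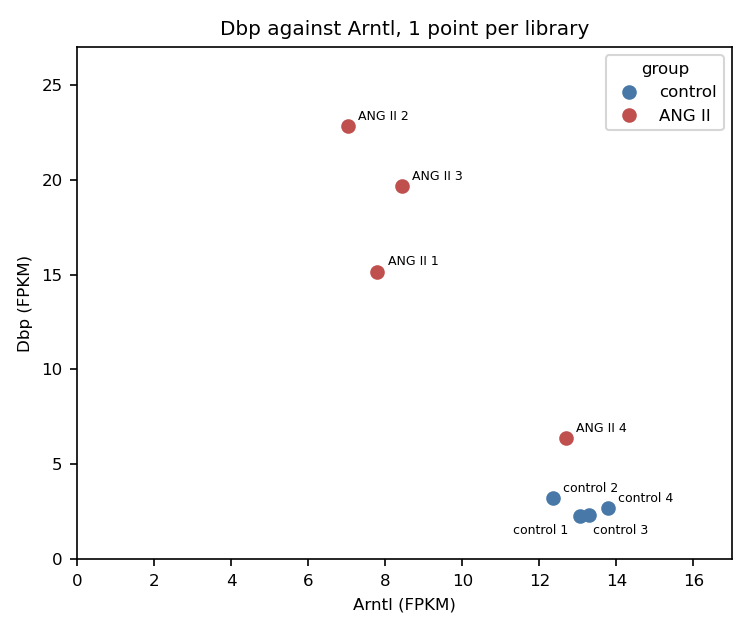
Dbp (y axis, FPKM) against Arntl (x axis, FPKM), 1 point per library, control in blue and ANG II in red. The control libraries gather at Dbp 2.29 to 3.23 and Arntl 12.3 to 13.8 FPKM, ANG II 1 to 3 lie at high Dbp and low Arntl, and ANG II 4 lies near the controls at Dbp 6.36 and Arntl 12.7 FPKM.

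ANG II 4 was the ANG II library nearest to control in 5 of the 7 genes that were higher without overlap and in both genes that were lower. Among all genes called higher, it was the nearest in 914 of 2708 (33.8%), and among all genes called lower in 101 of 273 (37.0%). Its mean correlation over genes with the other libraries of its group was 0.9883, the lowest of the 8 libraries, the others lying between 0.9884 and 0.9894. The hour at which each heart was taken was not given in the sources used here, and the part of that hour in the position of ANG II 4 was not tested.

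Per1 also responds to glucocorticoid and early response signals, so genes of both kinds were read beside it. The summed FPKM of 7 glucocorticoid-responsive genes was 270.5, 353, 337 and 420.2 in control 1 to 4 and 319, 278, 294 and 458 in ANG II 1 to 4. Control 1 was lowest and ANG II 4 highest, as for Per1, and ANG II 4 was the highest ANG II library for 5 of the 7 genes and the lowest for the other two, Fkbp5 and Zbtb16. The median log2 fold change of the list was -0.12. In this list Fkbp5, a chaperone that tempers the glucocorticoid receptor, rose from 9.92 ± 1.53 to 28.5 ± 8.24 FPKM (SD, n = 4 each; log2 fold change 1.41, SE 0.173, limma, adjusted p = 0.000261), with ANG II 1 highest at 40.4 FPKM and ANG II 4 the lowest ANG II library at 22.0 FPKM, and the other 6 did not pass the test. The summed FPKM of 8 immediate early genes was 85.1, 71.5, 82.7 and 77.8 in control 1 to 4. In ANG II 1 to 4 it was 108, 106, 122 and 162. Control 1 was the highest control library here, unlike for Per1. ANG II 4 was the highest ANG II library in 6 of the 8 genes and the lowest in 1, Egr1 (Zbtb16 and Egr1 are named after their values were seen). Of these, Junb rose from 9.84 ± 3.00 to 30.7 ± 9.38 FPKM (log2 fold change 1.55, SE 0.228, limma, adjusted p = 0.000727). Fos rose from 6.56 ± 0.872 to 16.1 ± 9.23 FPKM (log2 fold change 1.06, SE 0.281, limma, adjusted p = 0.0163), with 29.7 FPKM in ANG II 4, and its call was lost after quantile normalization (adjusted p = 0.0658). The part of such signals in the Per1 values was not tested.

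The rest of the loop was read from 12 further genes, of which 2 were called higher, 3 lower and 7 were not called. Across all tested genes, 14.0% were called higher and 1.41% lower. By adjusted p under 0.05 alone 8 of the 12 passed, 4 of them higher in ANG II, where 33.3% of all tested genes passed. The median log2 fold change of the 12 genes was -0.04, against 0.15 over all genes. Bhlhe40 (DEC1), the closest relative of Bhlhe41, rose without overlap, from 22.2, 14.2, 20.2 and 16.5 FPKM in control 1 to 4 to 38.6, 35.6, 37.7 and 34.7 FPKM in ANG II 1 to 4 (log2 fold change 0.98, SE 0.119, limma, adjusted p = 0.000244). Unlike Dbp and Arntl, Bhlhe40 was nearly level over the 4 ANG II libraries. Arntl2, a less used relative of Arntl, rose from 2.78 ± 0.497 to 4.33 ± 0.372 FPKM (SD, n = 4 each; log2 fold change 0.50, SE 0.115, limma, adjusted p = 0.00785). That call sat at the fold threshold and was lost under 8 of 18 alternatives, each of the other scalings included.

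Cry1, the repressor that closes the loop late in the cycle, was at 23.7, 14.5, 24.2 and 19.2 FPKM in control and 12.4, 11.2, 12.0 and 16.9 FPKM in ANG II. ANG II 4 lay above control 2, so the groups overlapped (log2 fold change -0.59, SE 0.168, limma, adjusted p = 0.0220). Nfil3 (E4BP4), which represses at D-boxes where DBP activates, was at 14.3, 9.84, 16.9 and 11.5 FPKM in control and 7.00, 7.46, 7.48 and 11.7 FPKM in ANG II (log2 fold change -0.58, SE 0.184, limma, adjusted p = 0.0339). ANG II 4 again lay among the controls while ANG II 1 to 3 lay below them. Both calls depended on single libraries, the adjusted p for Cry1 reaching 0.0629 without control 3 and that for Nfil3 0.0906 without ANG II 1.

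Of the genes of the loop that were not called, Clock was at 19.7 ± 0.503 FPKM in control against 19.4 ± 1.85 in ANG II (SD, n = 4 each; log2 fold change -0.02, SE 0.0704, limma, adjusted p = 0.846). With median-of-ratios scaling its log2 fold change was -0.24 (limma, adjusted p = 0.0244). With quantile normalization it was -0.25 (limma, adjusted p = 0.0205), and both lay under the fold threshold. Clock is the partner of ARNTL and has little rhythm in most tissues. Ciart, an E-box driven repressor, was at 3.15 ± 0.791 and 2.96 ± 0.501 FPKM (log2 fold change -0.05, limma, adjusted p = 0.828), and 11.9% of its 50-base words are shared with Gm9176. Cry2 was at 9.12 ± 0.604 and 11.5 ± 1.40 FPKM (log2 fold change 0.30, limma, adjusted p = 0.0337), under the fold threshold. With median-of-ratios scaling the log2 fold change of Cry2 was 0.087 (limma, adjusted p = 0.558). With quantile normalization it was 0.040 (limma, adjusted p = 0.804). Hlf, the third PAR bZIP factor beside Dbp and Tef, lay the other way from them, at 9.06 ± 0.621 FPKM in control and 6.51 ± 0.995 in ANG II, without overlap between the groups. The log2 fold change (-0.43, SE 0.103, limma, adjusted p = 0.00984) missed the fold threshold as deposited and passed it under median-of-ratios scaling, quantile normalization and removal of mitochondrially encoded genes.

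**Figure D3:**
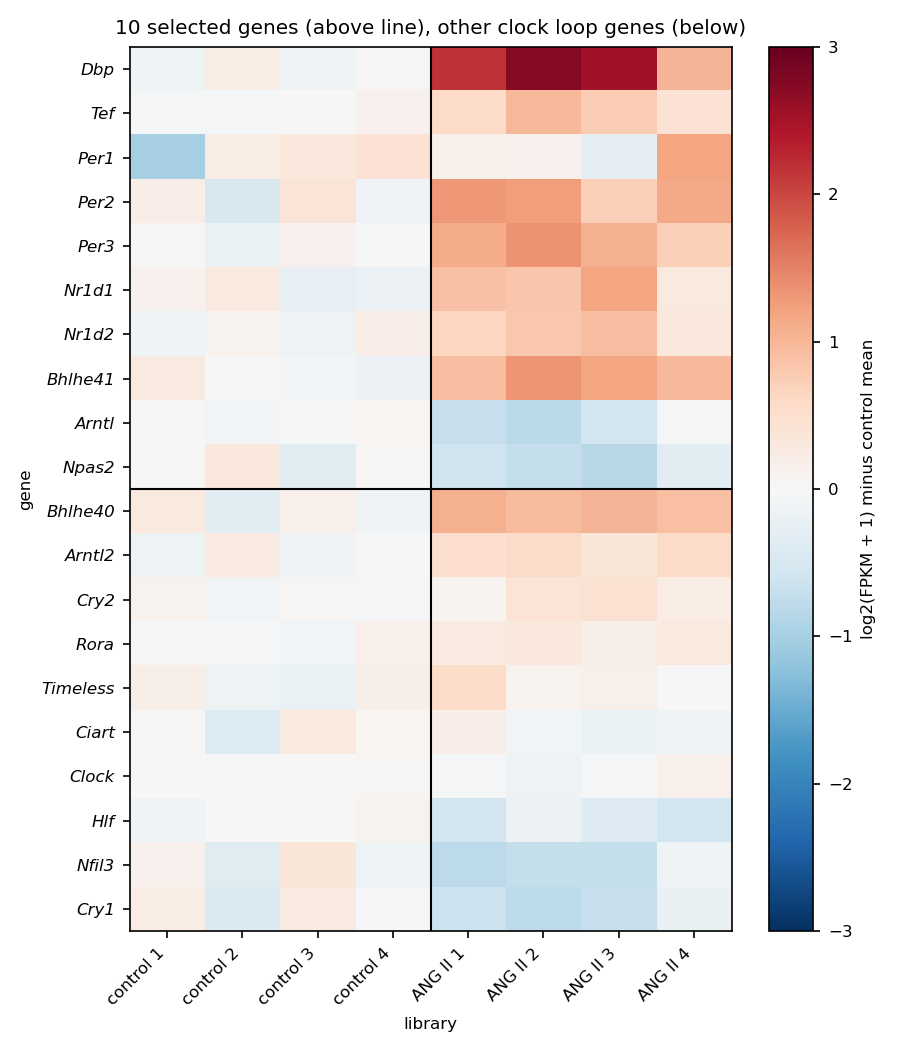
log2(FPKM + 1) minus the control mean of each gene (colour, red above and blue below) in the 8 libraries (x axis); the 10 selected genes lie above the line and other genes of the loop below it, Rorb being left out because it lay under 1 FPKM. ANG II 4 is paler than ANG II 1 to 3 for Dbp, Arntl, Nr1d1, Cry1 and Nfil3, while Bhlhe40 has nearly the same colour in all ANG II libraries.

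Of 14 genes for proteins that modify or degrade clock proteins (kinases, ubiquitin ligases and cofactors), limma called 0, although 8 had an unadjusted p under 0.05 and 7 an adjusted p under 0.05, all 7 higher in ANG II. By that adjusted p alone, with no fold threshold, 33.3% of all tested genes passed, and 28.4% of all tested genes passed and were higher in ANG II. The log2 fold changes of the 14 genes ran from 0.01 to 0.47 with a median of 0.20, close to the 0.15 of all genes. Among 18 genes known to follow the clock in heart or other tissues, 4 were called higher, 3 lower and 11 were not called. Across all tested genes, 14.0% were called higher and 1.41% lower. By adjusted p under 0.05 alone 8 of the 18 passed, 5 of them higher in ANG II. The median log2 fold change of the 18 genes was -0.13. Tspan4, a tetraspanin, rose from 13.3 ± 1.34 to 36.1 ± 4.90 FPKM (log2 fold change 1.37, SE 0.106, limma, adjusted p = 2.08e-05). Klf10, a TGF-beta inducible repressor, rose from 10.9 ± 2.88 to 19.3 ± 3.80 FPKM (log2 fold change 0.79, SE 0.188, limma, adjusted p = 0.00925). For Tspan4 and Klf10 the control and ANG II libraries did not overlap.

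**Figure D4:**
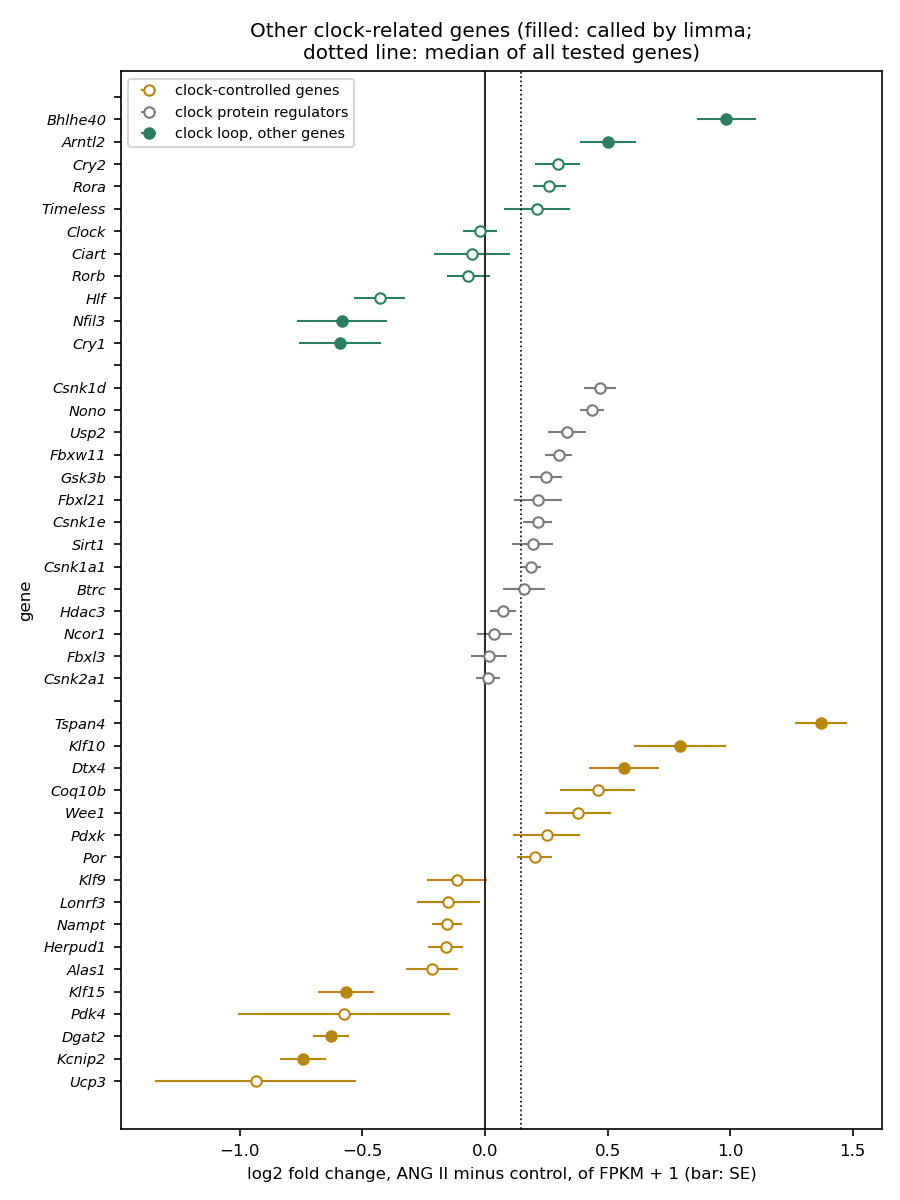
log2 fold change of FPKM + 1, ANG II minus control (x axis), of other clock loop genes (green), regulators of clock proteins (grey) and clock-controlled genes (ochre); bars are SE, filled points were called by limma and the dotted line is the median of all tested genes. The regulators gather between 0.01 and 0.47, while the loop genes shown spread from Cry1 at -0.59 to Bhlhe40 at 0.98.

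The genes whose profile over the 8 libraries was most like that of Dbp were sought among 11857 genes by the root mean square difference of log2(FPKM + 1), each gene centred on its own mean. Among the nearest were Hmox1 (0.304), Trem2 (0.312), Cdk1 (0.331) and Adam12 (0.352). Hmox1 was at 6.83 ± 0.426 FPKM in control against 34.5 ± 13.2 in ANG II (SD, n = 4 each). The nearest to Arntl were Adam19 (0.119), Zfp612 (0.124), Rasl2-9 (0.124), Cep85l (0.131) and Ldhd (0.135). The libraries behind these distances share the group difference.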

How the data were processed

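Per the labels, mRNA was enriched on oligo(dT) beads from tissue given as left ventricle, while the extraction note names CRC cells. The authors deposited 1 table of FPKM values for the 8 libraries. The submitters' processing notes name Bowtie2, HISAT and RSEM. Versions, genome build and use of strand were not given in the sources used here. Groups came from the titles. The 10 genes and all gene lists were chosen with earlier results of these data known. limma 3.58.1 in R 4.3.3 (eBayes with trend) was run on log2(FPKM + 1) with no covariate for the 19364 genes that averaged 0.1 FPKM or more. Genes were called at a Benjamini-Hochberg adjusted p under 0.05 and an absolute log2 fold change above 0.5. The base of the logarithm, the pseudocount and the filter were choices made here. The p-values are two-sided and set the group difference against the spread between the libraries of a group. Whether that spread is between mice or between pools was not given. The scripts were tested on simulated data.

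Named were all 10 genes; in each list the called genes, or the 3 with the largest absolute log2 fold change where more than 5 were called; Clock, Cry1, Cry2, Ciart, Hlf, Nfil3, Bhlhe40 and Thra; and the 5 profiles nearest to Dbp and to Arntl among genes averaging 1 FPKM or more. Marker genes were counted and summed, and Sln and Tagln are named for their values of 0. A few genes named by this rule are not reported here but stay in the counts. Positions are from GENCODE M21 (GRCm38). Fragments were recovered from FPKM steps, whole within 0.05 of a fragment for 97.6 to 99.3% of values under 60 fragments, and cover counting error only. Libraries of 1 group differed beyond sampling noise (chi-square per gene at least 7.45). Alternatives changed the pseudocount, filter, scaling, variance trend, fold threshold and replicate block, or left out 1 library. Python 3.11.15, numpy 2.4.6, pandas 2.3.3 and matplotlib 3.10.9 were used.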

Additional observations from a re-analysis of the deposited data

Results flagged for a closer look

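Nfil3 in ANG II 4 stood at 11.7 FPKM, where the other ANG II libraries lay between 7.00 and 7.48 FPKM. The gap to the nearest library was 0.900 of the range of the group, above Dixon's critical value for 4 samples. Of 60 groups checked this was the 1 value found, and chance alone gives such a value in about 1 in 20 groups.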

How the results depend on the processing

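All 10 genes but Per1 kept their direction under each alternative, and Per1 turned to -0.031 without control replicate 1. The log2 fold change with each library left out in turn ran from 1.90 to 2.47 for Dbp, 0.59 to 0.78 for Tef, 0.94 to 1.22 for Per2, 0.97 to 1.17 for Per3, 0.67 to 0.97 for Nr1d1, 0.59 to 0.79 for Nr1d2, 1.03 to 1.20 for Bhlhe41, -0.69 to -0.44 for Arntl, -0.73 to -0.50 for Npas2 and -0.031 to 0.50 for Per1. Of the 10 genes, 9 were called, 7 with median-of-ratios scaling (Nr1d2 and Tef lost), 8 without control replicate 4 or ANG II replicate 1 or 2 (Arntl lost each time), and 4 above a log2 fold change of 1. Of the 10 genes, 7 did not overlap between the groups, 6 did not after quantile normalization, and 7 to 9 with 1 library left out, 9 being without ANG II replicate 4. Leaving out a library can only reduce overlap, for any gene. The share of all genes without overlap was not counted under these settings. Of 19364 genes, 2981 were called, 2708 higher and 273 lower. The count was 6447 without a fold threshold (5496 higher, 951 lower) and 795 above a log2 fold change of 1 (767 higher, 28 lower). Median-of-ratios scaling gave 1671 higher and 804 lower, quantile normalization 1417 and 981, and a total without mitochondrially encoded genes 2117 and 459; the median of all genes was then 0.0025, -0.04 and 0.08. Leaving out 1 library gave 2763 to 3109 genes, 2505 to 2838 higher and 247 to 298 lower. Of the loop, regulator and clock-controlled genes 12 were called, 23 without a fold threshold, 2 above 1, and 9 to 13 with a library left out. Of the 12 loop genes 5 were called, 8 without a threshold, 0 above 1, and 2 to 5 with a library left out, 2 being without control replicate 1 or 3. The cause of these shifts was not tested beyond the thresholds themselves. Whether same-numbered samples were handled together was not given, and the main fit used no pairing. Deviations from the group means correlated at -0.032 to 0.062 between same-numbered samples and at -0.088 to 0.094 between others. With a replicate block 2968 genes were called, 11 of the other clock genes and 4 of the loop genes, Nfil3 being lost (limma, adjusted p = 0.0539). Dbp, Per2, Per3, Npas2 and Bhlhe41 rest on under 100 fragments in some libraries, which limits their precision.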

Other observations

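Pdk4 and Ucp3, clock-controlled genes of fat and fuel use that were chosen here after their values were seen, were far higher in control 2 than elsewhere. Pdk4 was at 239, 1268, 348 and 609 FPKM in control 1 to 4 and 420.1, 243, 346 and 368 FPKM in ANG II 1 to 4. Ucp3 was at 13.3, 65.6, 17.6 and 24.5 FPKM in control 1 to 4 and 15.6, 8.72, 11.9 and 15.2 FPKM in ANG II 1 to 4. The groups overlapped for both (limma, adjusted p = 0.347 and 0.111).

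Other called clock-controlled genes were Dtx4, which rose, and 3 that fell in ANG II, all named after their values were seen. Dtx4 rose from 2.35 ± 0.369 to 4.00 ± 0.858 FPKM (log2 fold change 0.57, SE 0.142, limma, adjusted p = 0.0121), and its call was lost under 5 of 18 alternatives. Kcnip2, a subunit of the transient outward potassium channel, fell from 129.8 ± 11.9 to 77.4 ± 9.45 FPKM (SD, n = 4 each; log2 fold change -0.74, SE 0.0924, limma, adjusted p = 0.000279). Dgat2, an enzyme of triglyceride synthesis, fell from 304 ± 24.95 to 196 ± 15.02 FPKM (log2 fold change -0.63, limma, adjusted p = 0.000209). Klf15, a metabolic transcription factor, fell from 23.7 ± 1.92 to 15.8 ± 2.73 FPKM (log2 fold change -0.57, limma, adjusted p = 0.00389), and its call was lost without ANG II replicate 2. The groups did not overlap for Kcnip2, Dgat2 or Klf15.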
